A study of Mus musculus with 38 samples.

Results

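The genes described here are 10 genes of dietary lipid absorption and chylomicron assembly (Fabp1, Fabp2, Apoa1, Apoa4, Apob, Mttp, Cd36, Npc1l1, Dgat1 and Mogat2), taken by their symbols from tables of 21441 genes. All of them were found, and all passed the filter on low values in each tissue. The tables hold FPKM, which sets fragment numbers against the length of the transcript and the size of the library, from RNA-seq of wild-type C57BL6/J mice. Every mouse had been made vitamin D deficient. The hormone 1,25(OH)2D3, vitamin D in its active form, was injected into the peritoneum at a dose of 10 ng/g in the treated animals, and the controls had 0.1 ml of a propylene glycol and ethanol vehicle. Both were killed 4 h later. The labels give an age of 10 to 13.3 weeks in one place and of 12 to 14 weeks at injection in another, and sex as pooled male and female. Each library nonetheless showed a single sex pattern: in villi 7 were female (Xist 8.81 FPKM or more, Ddx3y 0.0510 or less) and 6 male (Ddx3y 7.64 FPKM or more, Xist 0.0548 or less), and 10 and 2 in crypts and 7 and 6 in colon were as clear. There were 7 vitamin D and 6 vehicle libraries of villi, 6 and 6 of crypts, both released from the proximal small intestine in EDTA and separated by filtration, and 7 and 6 of epithelium scraped off the colon. Both patterns were present in every group, so the libraries of a group do not all come from a single mouse. The labels do not tie libraries to mice, so the p-values reflect spread among libraries that may in part be technical.

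Enterocytes of the small intestine take up the products of fat digestion, rebuild them to triglyceride and cholesteryl ester in the endoplasmic reticulum, and pack them with apolipoprotein B into chylomicrons for the lymph. Most of this programme is switched on as cells leave the crypt and climb the villus, and little of it is used in the colon. 1,25(OH)2D3 acts through the vitamin D receptor, a nuclear receptor best known in the intestine for inducing calcium transport genes and Cyp24a1, the enzyme that degrades the hormone.

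The treatment labels were checked with Cyp24a1. Its lowest vitamin D library had 1898 FPKM in villi, 2516 FPKM in crypts and 403 FPKM in colon, against highest vehicle libraries of 62.2, 7.35 and 64.7 FPKM in the same tissues. The authors' deposited mean levels summed over all genes to 16.2 M in villi, 16.1 M in crypts and 15.3 M in colon. The member with the lowest such level was Cd36 in each tissue, at 615 in villi, 236 in crypts and 106 in colon. If these levels are normalised counts, which is what that column name stands for in DESeq2 output, counting error was small beside the spread between libraries described below. Of the 38 libraries, 4 of villi and 4 of colon have column names that begin with a number, whose meaning the sources used here do not give. All 8 had the male pattern, as had the libraries numbered 4 of each group, and these numbered 4 are the only male pair in crypts. In colon the 4 prefixed libraries stood apart for lipid genes, as set out below, and in villi no member separated them from the other 9. The labels write the names of 6 more libraries (1 of villi, 4 of crypts and 1 of colon) with hyphens, and the remaining libraries are called plain-named.

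The 10 genes were by far most abundant in villi. Their FPKM made up 0.0853% of the summed FPKM of a library (median) in vitamin D treated colon, 1.57% in vitamin D treated crypts and 7.59% in vitamin D treated villi. The medians of the vehicle groups were 0.0977% in colon, 2.75% in crypts and 8.16% in villi. In the comparison of tissues after vitamin D, from the authors' deposited table, all 10 genes were lower in crypts than in villi at an adjusted p under 0.05, beside 30.4% of all genes lower past that threshold. The deposited log2 differences, crypts over villi, ran from -1.25 for Dgat1 to -2.81 for Apoa4. The labels do not state which tissue is set over which, so the direction was inferred from FPKM over all genes. The deposited values correlated at -0.97 with log2 FPKM of villi minus crypts, at -0.93 with villi minus colon and at -0.93 with crypts minus colon. Colon over villi, all 10 were lower again, from -2.79 for Cd36 to -8.34 for Apoa4, beside 27.0% of genes.

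Colon over crypts, 8 of the 10 passed in the authors' deposited table, all lower in colon, beside 23.9% of genes. The 8 ran from -1.69 for Apob to -6.57 for Mttp. The exceptions were Fabp2, the intestinal fatty acid binding protein, at -0.996 with a deposited adjusted p of 0.0516, and Cd36, a fatty acid translocase of the cell surface, at 0.13 with 0.889. The 3 FPKM tables were scaled separately: the median gap between differences of mean log2 FPKM and the deposited differences was 0.47 for crypts over villi, 0.66 for colon over villi and 0.07 for colon over crypts, so levels set across tissues are approximate.

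Within villi the apolipoproteins carried on the chylomicron surface stood highest on the FPKM scale. In vitamin D treated villi Apoa1 had 14082 ± 2291 FPKM, Apoa4 13728 ± 2841 FPKM and the liver-type fatty acid binding protein Fabp1 9660 ± 3206 FPKM (SD, n = 7). Apoa1 and Apoa4 differed by less than their SD, and Fabp1 lay below both by more than its own. Fabp2 followed at 2770 ± 1257 FPKM and Mttp, which loads lipid onto apolipoprotein B, at 1165 ± 131 FPKM. Dgat1 at 556 ± 63.4, Npc1l1 at 532 ± 39.5, Apob at 511 ± 77.6 and Mogat2 at 444 ± 63.1 FPKM lay together, each gap to the next being smaller than the larger of both SDs. Cd36 was far below them at 10.6 ± 5.89 FPKM. Cd36 also varied most between the vitamin D villus libraries, with a coefficient of variation of 55.7%, and Npc1l1 least, with 7.43%.

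In vitamin D treated crypts the top of the order was shared by Fabp1 at 3830 ± 2356, Apoa1 at 3491 ± 2116 and Apoa4 at 2730 ± 2106 FPKM (SD, n = 6), which did not differ beyond their SD. Fabp2 at 911 ± 806, Mttp at 527 ± 122 and Dgat1 at 327 ± 79.5 FPKM came next, and Mogat2 at 207 ± 75.4, Npc1l1 at 188 ± 42.2 and Apob at 112 ± 35.0 FPKM followed. The lowest was again Cd36, at 2.14 ± 1.96 FPKM. In vitamin D treated colon the order was another one: Fabp2 led at 483 ± 233 FPKM (SD, n = 7), Apob had 36.7 ± 18.4 FPKM and Dgat1 34.5 ± 11.03 FPKM. Apoa1, Apoa4 and Fabp1 averaged 83.5 ± 121, 68.9 ± 97.7 and 61.1 ± 83.1 FPKM there, with SDs above their means. Mogat2 at 6.45 ± 2.58, Mttp at 5.89 ± 6.48, Npc1l1 at 3.04 ± 2.80 and Cd36 at 2.45 ± 2.24 FPKM were the lowest, and neighbours among these 4 differed by less than the larger of both SDs.

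**Figure D1:**
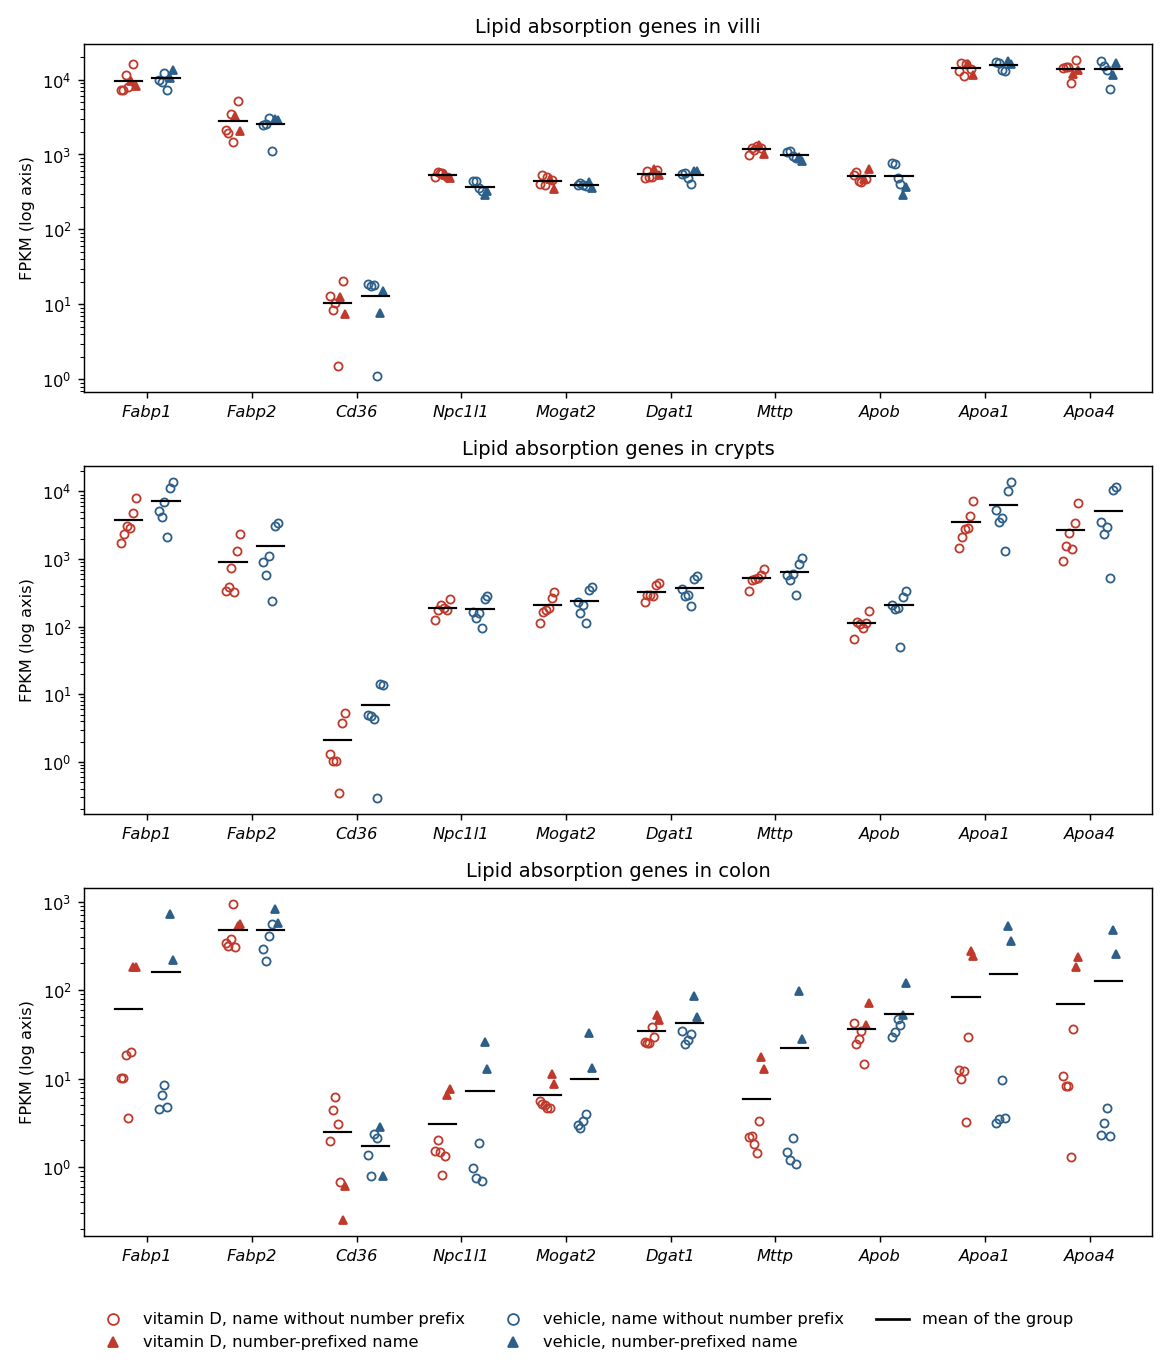
FPKM (log axis) of the 10 genes in each library of villi, crypts and colon, vitamin D left of vehicle for each gene, with the group mean as a bar and number-prefixed libraries as filled triangles. In villi all 7 vitamin D libraries of Npc1l1 lie above the 6 vehicle libraries, in crypts the groups overlap for every gene, and in colon the filled triangles lie above the open circles for 7 genes.

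The question in villi was whether the hormone changed these genes within 4 h. The cholesterol transporter rose, and the rest of the set did not pass the test. Npc1l1, the apical cholesterol transporter that is the target of ezetimibe, was the one member of 10 called higher, and none was called lower, beside 2.47% of the 9706 genes tested (2.17% higher and 0.299% lower). The lowest, median and highest vitamin D library had 485, 528 and 589 FPKM of Npc1l1, against 290, 346 and 446 FPKM in vehicle villi. Every vitamin D library thus lay above every vehicle library, which held in either direction for 1.92% of all genes tested. The log2 fold change was 0.56 ± 0.11 (SE), with a 95% confidence interval of 0.33 to 0.79 and an adjusted p of 0.0120 in limma. The authors' deposited table gives 0.54 with an adjusted p of 6.64e-05, in a table where 3.60% of genes passed, and no other member passed there. No single library carried the call, since leaving out each of the 13 in turn gave adjusted p-values of 0.00619 to 0.0355. The call was lost without both replicates 4 (0.52, adjusted p = 0.0618), in the libraries with plain names alone (0.49, adjusted p = 0.141) and in those without a number prefix alone (0.47, adjusted p = 0.114), each with fewer libraries. With the sex pattern as a covariate the call held (0.54, adjusted p = 0.00580), and the change was 0.37 in the 7 female-pattern libraries (adjusted p = 0.247) and 0.735 in the 6 male-pattern ones (adjusted p = 0.119).

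Markers of the enterocyte and of the proximal gut were looked at beside Npc1l1, because it is a gene of proximal enterocytes. Summed over 12 enterocyte markers outside lipid absorption, vitamin D villi held 14340 to 19160 FPKM (median 16364), against 11610 to 18729 FPKM (median 14199) in vehicle villi, and 10 of the 12 had a positive log2 fold change with none called. The 6 proximal markers (Gata4, Cybrd1, Slc40a1, Onecut2, Cyp3a11 and Lct) summed to 1224 to 2825 FPKM (median 2285) in vitamin D villi. In vehicle villi they summed to 596 to 2296 FPKM (median 1320), with 3 of 6 positive and none called. Lct is in both lists, and a sum of FPKM weighs abundant genes most. Before adjustment, 3 of the 12 and 3 of the 6 had p under 0.05 in limma. Stem and cycling markers were negative in 6 of 6 tested (median -0.28) and Paneth markers in 7 of 8 (median -0.38), none called. Stem and cycling markers summed to 42.0 to 73.6 FPKM with vitamin D and 57.0 to 106 FPKM with vehicle. Paneth markers summed to 149 to 1107 and 90.8 to 3301 FPKM in the same groups. All these sums overlapped between the groups, and their part in the rise of Npc1l1 was not tested. Adipocyte and endothelial markers were close to 0, with none of the 8 and none of the 6 passing the filter in villi or crypts, and the adipocyte genes Lep, Cfd and Retn were listed at 0 in every villus library.

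The stretch around the start of Npc1l1 is shown as the sequence of the one member that passed the test, beside that of Fabp1, which did not pass and had more matches to the same letters. Both come from RefSeq on GRCm38.p6 and run from 250 bases before to 50 bases after the gene's start, on the strand of the gene. Capitals mark AGGTCA, the half-site that many nuclear receptors bind, searched on both strands, and here each match is on the reverse strand and reads TGACCT.
Npc1l1 promoter, chr11:6230196-6230495, minus strand: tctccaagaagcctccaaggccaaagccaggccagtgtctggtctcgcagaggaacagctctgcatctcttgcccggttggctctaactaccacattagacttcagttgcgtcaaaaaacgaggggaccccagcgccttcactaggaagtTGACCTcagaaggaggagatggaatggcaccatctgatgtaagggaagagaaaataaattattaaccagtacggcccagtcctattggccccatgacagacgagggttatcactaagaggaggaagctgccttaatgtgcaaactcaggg
Fabp1 promoter, chr6:71199629-71199928, plus strand: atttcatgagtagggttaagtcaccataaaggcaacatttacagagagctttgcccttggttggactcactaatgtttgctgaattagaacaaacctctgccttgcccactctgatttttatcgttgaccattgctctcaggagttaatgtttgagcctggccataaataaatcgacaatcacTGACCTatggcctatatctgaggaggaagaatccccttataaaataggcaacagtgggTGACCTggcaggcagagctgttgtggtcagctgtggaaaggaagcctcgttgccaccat

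Promoters were found for 8 of the 10 members; Mogat2 and Dgat1 had no entry. AGGTCA was present in 3 of the 8 (Npc1l1, Fabp1 and Cd36) and in 16.3% of all 32851 promoters of this length. In Npc1l1 it began 100 bases before the start and in Fabp1 it began 67 and 9 bases before it. The same half-site repeated after a gap of 3 bases, a form of element to which the vitamin D receptor binds with its partner, was in no member's window and in 2 of all promoters. These matches describe letters in a window and show no site in use.

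The other members did not pass the test in villi. Cd36 had a lowest, median and highest value of 1.53, 10.49 and 20.7 FPKM in vitamin D villi, against 1.09, 16.3 and 19.0 FPKM in vehicle villi, and a log2 fold change of -0.18 ± 0.61 (SE). For the cytosolic carriers the change was -0.14 ± 0.20 for Fabp1 and 0.09 ± 0.30 for Fabp2. Mogat2, which adds a second fatty acid to monoacylglycerol, gave 0.16 ± 0.10, and Dgat1, which completes the triglyceride, 0.06 ± 0.11. Their adjusted p-values were 0.579 or more in limma.

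Mttp had the next smallest p in villi. Its lowest, median and highest value was 982, 1202 and 1320 FPKM in vitamin D villi, against 821, 946 and 1113 FPKM in vehicle villi, and 5 of the 7 vitamin D libraries exceeded every vehicle library. The log2 fold change was 0.26 ± 0.10 (95% confidence interval 0.05 to 0.48), and the adjusted p of 0.278 in limma did not pass. Apob, the protein frame of the chylomicron, changed by 0.09 ± 0.21, Apoa1 by -0.17 ± 0.14 and Apoa4, made in the gut after fat intake, by 0.03 ± 0.21. For the apolipoproteins the intervals allow log2 changes between -0.46 and 0.54. Of the 10 members 3 had a negative log2 fold change, beside 52.8% of all genes tested. The median over the members was 0.07, beside -0.01 over all genes tested.

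**Figure D2:**
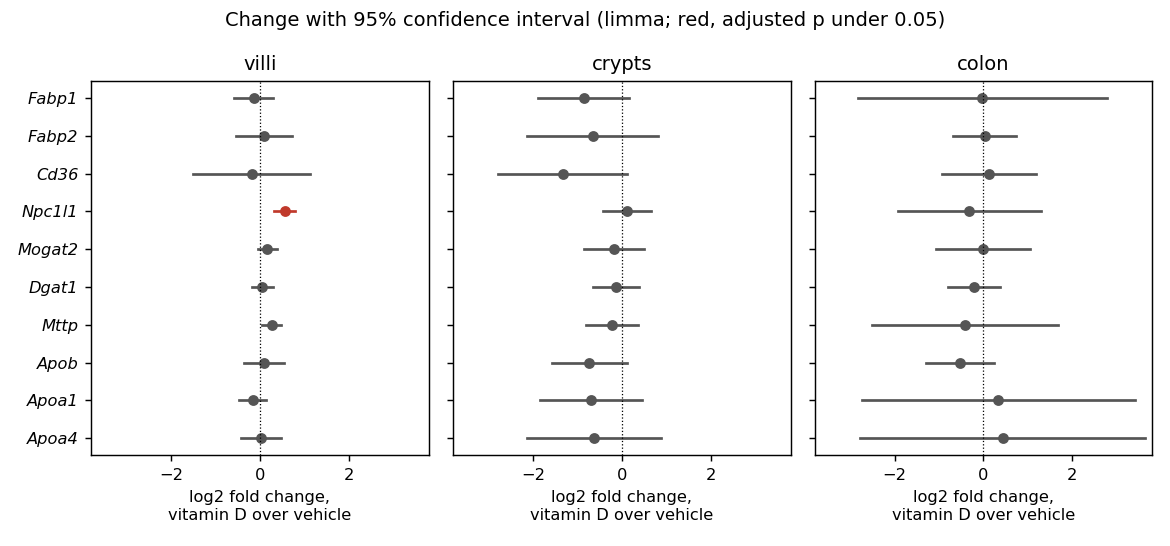
Log2 fold change of vitamin D over vehicle with its 95% confidence interval for the 10 genes in villi, crypts and colon, from limma on log2(FPKM + 0.5), with red for an adjusted p under 0.05. Npc1l1 in villi, at 0.56, is the one red point, and the intervals widen in crypts and colon.

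In crypts the members were mostly lower after vitamin D, without passing the test. None of the 10 was called by limma, beside 1.46% of the 10733 genes tested, none reached p under 0.05 before adjustment, and none passed in the authors' deposited table, where 4.28% of genes did. The log2 fold change was negative for 9 of 10, as it was for 52.4% of all genes, and the median was -0.64, beside -0.01 over all genes. Npc1l1 was the exception at 0.11 ± 0.25 (SE). Its lowest, median and highest value was 126, 182 and 255 FPKM in vitamin D crypts, against 94.7, 162 and 282 FPKM in vehicle crypts.

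Cd36 and Apob had the smallest p-values in crypts. Cd36 had a lowest, median and highest value of 0.350, 1.16 and 5.31 FPKM in vitamin D crypts, against 0.290, 4.88 and 14.0 FPKM in vehicle crypts, a log2 fold change of -1.33 ± 0.67 (adjusted p = 0.375 in limma). With the replicate number as a block its adjusted p was 0.0294, at the same change and with the vitamin D library the lower of the pair in 5 of 6 pairs. Apob had 65.4, 111 and 172 FPKM in vitamin D crypts, against 49.4, 199.7 and 339 FPKM in vehicle crypts, a log2 fold change of -0.73 ± 0.39 (adjusted p = 0.401). It too was lower in 5 of 6 pairs, and its adjusted p in the block was 0.179. In both genes vehicle replicate 4 was the lowest library of all 12. The other 5 vehicle libraries had 180.3 to 339 FPKM of Apob, above every vitamin D library, and 4.30 to 14.0 FPKM of Cd36.

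The result in crypts turned on that library. Without vehicle replicate 4 the adjusted p in limma was 0.0366 for Cd36 (log2 fold change -1.88) and 0.0126 for Apob (-1.10), and the genes called over the whole table were 1065 in place of 157. Sex and replicate number cannot be told apart for it, since it is the one male-pattern vehicle library. With the sex pattern as a covariate neither gene was called (adjusted p = 0.149 for Cd36 and 0.239 for Apob). Vehicle replicate 4 was the lowest of the 12 crypt libraries for 9 of the 10 members and vehicle replicate 6 was the highest for 9 of the 10. Within vitamin D crypts replicate 6 was the highest for all 10. The members thus ran in parallel from library to library: the median Pearson correlation over their 45 pairs was 0.91 in crypts (12 libraries), against 0.18 in villi (13 libraries), on log2 values that share library and cell make-up.

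The enterocyte markers followed the same libraries in crypts. The 12 markers summed to 4583 to 9072 FPKM (median 6383) in vitamin D crypts, against 3268 to 13945 FPKM (median 8502) in vehicle crypts, with vehicle replicate 4 lowest and vehicle replicate 6 highest. Of the 12, 10 had a negative log2 fold change (median -0.37) and none was called, whereas 7 of 9 stem and cycling markers and 8 of 8 Paneth markers that passed the filter were positive, none called. In bulk RNA, fewer enterocytes in a crypt preparation and less lipid mRNA per cell cannot be told apart. The part of the marker sums in the members' values was not tested.

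**Figure D3:**
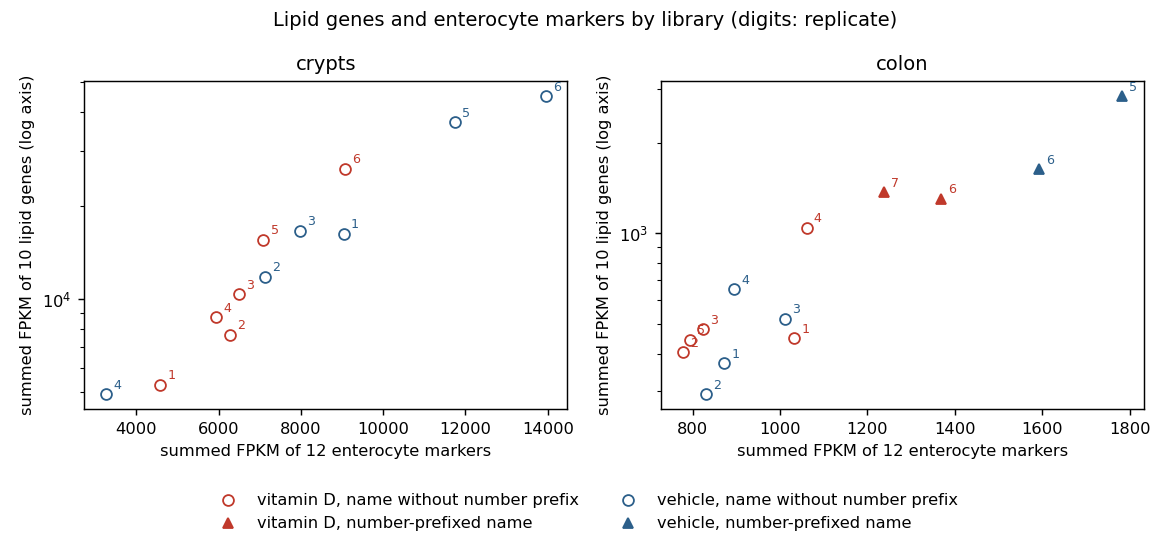
Summed FPKM of the 10 lipid genes (log axis) against the summed FPKM of 12 enterocyte markers, 1 point per library with its replicate number, in crypts and colon. In crypts the points run from vehicle replicate 4 at the lower left to vehicle replicate 6 at the upper right, and in colon the 4 number-prefixed libraries hold the right side.

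The rest of the crypt set showed the same sign with wide errors. Fabp1 had a lowest, median and highest value of 1703, 2981 and 8124 FPKM in vitamin D crypts, against 2086, 6042 and 13952 FPKM in vehicle crypts (log2 fold change -0.85 ± 0.47). Apoa1 changed by -0.69 ± 0.53, Fabp2 by -0.66 ± 0.68 and Apoa4 by -0.62 ± 0.70. The enzymes moved little, with -0.17 ± 0.31 for Mogat2, -0.13 ± 0.24 for Dgat1 and -0.21 ± 0.27 for Mttp. The groups overlapped for every member, and 1.75% of all genes did not overlap.

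In colon no member was called, beside 0.823% of the 11540 genes tested, none had p under 0.05 before adjustment, and none passed in the authors' deposited table, where 1.64% of genes did. The groups overlapped for all 10, and 0.867% of all genes did not overlap. The log2 fold changes lay between -0.52 for Apob and 0.43 for Apoa4, 6 of 10 negative. Standard errors reached 1.49 for Apoa4, 1.43 for Apoa1 and 1.30 for Fabp1. The 95% confidence interval of Apoa4 ran from -2.78 to 3.63, so that neither the sign nor the size of its change was settled. With the number prefix as a covariate the standard error of Fabp1 was 0.44.

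The spread in colon lay largely between the 4 number-prefixed libraries, vitamin D replicates 6 and 7 and vehicle replicates 5 and 6, and the other 9. For 7 of the 10 members (Fabp1, Npc1l1, Mogat2, Dgat1, Mttp, Apoa1 and Apoa4) these 4 lay above all the other 9, as did 4.93% of all genes tested. The male-pattern replicates 4 of both colon groups were thus among the lower 9. Fabp1 had 181 to 724 FPKM in them, against 3.54 to 20.1 FPKM in the other 9. For Apoa4 the ranges were 181 to 480 and 1.283 to 36.2 FPKM. For Mttp they were 12.9 to 98.7 and 1.08 to 3.28 FPKM. Npc1l1 had 6.49 to 25.7 FPKM in the 4, against 0.702 to 2.03 FPKM in the 9.

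Some small-intestinal genes outside the set separated the same colon libraries, and others did not. Sis, the brush border sucrase, had 28.8 to 87.5 FPKM in the 4, against 5.59 to 17.2 FPKM in the other 9, and Lct, the lactase, had 2.85 to 28.6 against 0.0547 to 1.69 FPKM. Apoc3, Mgam and Treh separated them too. Alpi overlapped, at 79.3 to 339 FPKM in the 4 and 29.5 to 101 FPKM in the 9. So did Gata4, at 0 to 11.2 and 0 to 1.26 FPKM, and Lyz1, at 6.69 to 502 and 3.36 to 15.4 FPKM. The part of small-intestinal genes in the members' values was not tested. In the 9 colon libraries without a number prefix, no member was called either: Mogat2 had a log2 fold change of 0.57 ± 0.12 with an adjusted p of 0.0742 in limma, and Fabp1 0.81 ± 0.43 with 0.539. With all 13 libraries Mogat2 was at -0.01 ± 0.50 and Fabp1 at -0.03 ± 1.30, and the sign of both, so near 0, also turned on leaving out any single one of vitamin D replicates 1 to 5.

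Cd36 in colon had another order of libraries. Its highest libraries were vitamin D replicates 3 and 2, with 6.24 and 4.37 FPKM, and the 3 lowest were vitamin D replicates 6, 7 and 5, with 0.250, 0.612 and 0.676 FPKM, so that vehicle colon, at 0.783 to 2.82 FPKM, fell between them. The 8 adipocyte markers summed to 14.3 to 341 FPKM in vitamin D colon, against 8.99 to 93.2 FPKM in vehicle colon. The 2 highest sums were those of vitamin D replicates 2 and 3, at 341 and 254 FPKM. The muscle and stromal markers reached 7498 FPKM in vitamin D replicate 2, against at most 373 FPKM in vehicle colon. The endothelial markers summed to 2.24 to 9.49 FPKM in vitamin D colon, against 1.97 to 8.54 FPKM in vehicle colon. Cd36 is also known as a gene of adipocytes and endothelium. The part of these cells in its colon level was not tested, nor was its relation to the sums over all colon libraries.

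Whether the response of a member differed between tissues was tested as a difference of fold changes in a limma model of the 38 libraries together. The model took libraries of different tissues as independent, and the labels do not state whether they share mice. No member passed, beside 0.0316% of genes for villi minus crypts, 0.499% for villi minus colon and 0.0771% for crypts minus colon. For Npc1l1 the difference was 0.44 ± 0.71 (SE, adjusted p = 0.862) for villi minus crypts and 0.88 ± 0.70 (adjusted p = 0.725) for villi minus colon. The wide spread of Npc1l1 in colon enters both errors. In a fit of villi and crypts alone the difference was 0.44 ± 0.27 (adjusted p = 0.699). The rise of Npc1l1 was therefore called in villi and was not shown to be particular to villi.

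Around the 10 genes, lists of the same pathway were counted with the test over all genes. Most of their members did not pass, and the few that did in limma without a block or covariate were all higher after vitamin D, beside 2.17% of all genes called higher in villi, 1.13% in crypts and 0.763% in colon. With the sex pattern as a covariate, genes that fell in crypts passed as well, as given below. Soat1, which esterifies cholesterol in the cell, was the one call among 11 tested genes of sterol handling in villi and in crypts. In villi its lowest, median and highest value was 7.04, 10.1 and 17.2 FPKM with vitamin D, against 2.50, 3.45 and 4.98 FPKM with vehicle (log2 fold change 1.46 ± 0.20, adjusted p = 0.000810). In crypts it was 20.8, 37.8 and 56.8 FPKM with vitamin D, against 8.89, 11.2 and 12.6 FPKM with vehicle (1.66 ± 0.20, adjusted p = 0.000706). The groups did not overlap in either tissue. In colon Soat1 gave 0.39 ± 0.17 with an adjusted p of 0.543, and none of the 10 tested sterol genes passed. Soat1 was the one positive gene among them: the other 9 had negative changes, the median was -0.46, beside 7.9e-05 over all genes, and Sqle, an enzyme of cholesterol synthesis, gave -0.44 ± 0.20 with an adjusted p of 0.577.

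Among 14 transcription factors of lipid genes, 1 was called in villi, 3 in crypts and 1 of 12 tested in colon, all higher, without a block or covariate. More of the list had negative changes, 8 of 14 in villi, 9 of 14 in crypts and 9 of 12 in colon, with medians of -0.03, -0.23 and -0.23. Ppard, a nuclear receptor for fatty acids, was called in all 3 tissues. Its lowest, median and highest value was 193, 254 and 365 FPKM in vitamin D villi, against 97.8, 136 and 153 FPKM in vehicle villi (1.01 ± 0.15, adjusted p = 0.00194). In crypts it had 258, 276 and 285 FPKM with vitamin D, against 141, 153 and 167 FPKM with vehicle (0.83 ± 0.07, adjusted p = 3.00e-05). In colon it had 168, 216 and 263 FPKM with vitamin D, against 118, 129 and 136 FPKM with vehicle (0.73 ± 0.10, adjusted p = 0.00161). The groups were apart in each tissue. The calls of Ppard and Soat1 were lost only within one sex pattern: for both in male-pattern villi (adjusted p = 0.143 for Ppard and 0.0882 for Soat1), and for Ppard in colon in female-pattern (0.0646) and male-pattern (0.946) libraries, with changes of 0.755 and 0.70 there.

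The other called factors were in crypts and less firm. Pparg, a related receptor, had 2.72 to 6.26 FPKM in vitamin D crypts, against 1.63 to 2.51 FPKM in vehicle crypts (0.94 ± 0.18, adjusted p = 0.0206). Gata4, a factor of the proximal small intestine, had 75.9 to 93.3 FPKM in vitamin D crypts, against 47.5 to 69.5 FPKM in vehicle crypts (0.45 ± 0.10, adjusted p = 0.0471). Leaving out single libraries took Pparg over the threshold in 5 of 12 cases, with adjusted p-values up to 0.0613, and Gata4 in 11 of 12, up to 0.104. Both were lost in plain-named libraries alone (adjusted p = 0.192 for Pparg and 0.211 for Gata4), and Gata4 with no filter on low values (0.0547).

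With the replicate number as a block, factors that fell in crypts passed too; they are named after their values were seen. Hnf4g, a nuclear receptor of enterocytes, averaged 90.1 ± 13.8 FPKM in vitamin D crypts and 155 ± 48.3 FPKM in vehicle crypts (SD, n = 6 each; log2 fold change -0.72 ± 0.22, adjusted p = 0.146 without and 0.0370 with the block in limma). Ppargc1a, a coactivator of oxidative metabolism, averaged 8.68 ± 1.68 and 15.5 ± 4.29 FPKM in the same groups (-0.77 ± 0.20, adjusted p = 0.0880 without and 0.0393 with the block). With the sex pattern as a covariate the adjusted p in limma was 0.0375 for Hnf4g and 0.0377 for Ppargc1a. Both also pass in the authors' deposited table, with adjusted p-values of 0.0145 and 0.00454, and Hnf4g passes there in colon too (0.0415). Srebf2, a regulator of sterol synthesis, passed only with the block in crypts (0.33, adjusted p = 0.0310), and so did Nr1h2, an oxysterol receptor, in villi (0.59, 0.0240), where the block leaves out vitamin D replicate 7.

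Known targets of PPAR alpha and fatty acid oxidation genes gave no call without a block among 10 tested in villi, 10 in crypts and 9 in colon. Their medians were 0.03, -0.40 and 0.15, and the smallest p-values belonged to Ehhadh in villi (0.42 ± 0.12, adjusted p = 0.0834), Cyp4a10 in crypts (-1.08 ± 0.39, 0.210) and Acot1 in colon (0.37 ± 0.24, 0.797). With the block Ehhadh, an enzyme of peroxisomal oxidation, passed in villi (0.46, adjusted p = 0.0416), as it does in the authors' deposited table (0.0172). Cyp4a10, a fatty acid hydroxylase, passed with the block in crypts (-1.08, adjusted p = 0.0377) and does not pass in the authors' deposited table (0.0693).

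Of genes that activate fatty acids and build glycerolipids, 2 of 12 tested were called in villi, none of 14 in crypts and 1 of 14 in colon, without a block or covariate. Agpat1 and Agpat2 are acyltransferases that make phosphatidic acid, on the route to triglyceride that runs beside the monoacylglycerol route of Mogat2. Agpat1 had a lowest, median and highest value of 159.9, 203 and 271 FPKM in vitamin D villi, against 137, 142 and 158 FPKM in vehicle villi (0.55 ± 0.12, adjusted p = 0.0182, and 0.0682 without both replicates 4; not called within either sex pattern). Agpat2 had 205, 262 and 299 FPKM in vitamin D villi, against 161, 184 and 229 FPKM in vehicle villi (0.45 ± 0.10, adjusted p = 0.0352), a call lost on leaving out any of 10 of the 13 libraries, with adjusted p-values up to 0.0818, and lost too with no filter (0.0543), in plain-named libraries (0.0722), without both replicates 4 (0.117) and within either sex pattern. In colon Agpat2 had 132, 149 and 177 FPKM with vitamin D, against 85.1, 103 and 121 FPKM with vehicle (0.55 ± 0.10, adjusted p = 0.0102), a call lost in plain-named libraries alone (0.68, adjusted p = 0.0567) and within either sex pattern. In crypts the smallest p was that of Acsl3, a fatty acid activating enzyme, at -0.44 ± 0.11 with an adjusted p of 0.0591. It averaged 10.4 ± 1.05 FPKM in vitamin D crypts and 14.4 ± 2.22 FPKM in vehicle crypts (SD, n = 6 each). Acsl3 passed with the replicate block (adjusted p = 0.0395), with name style (0.0327) or the sex pattern (0.0379) as a covariate, and in the authors' deposited table (0.00402). With the block, 3 more genes of the list passed in crypts: Acsl1, another activating enzyme, fell (-0.45, adjusted p = 0.0251), as did Lpin2, a phosphatidate phosphatase (-0.68, 0.0422), and Agpat1 rose (0.63, 0.0229). With the sex pattern as a covariate Acsl1 passed too (adjusted p = 0.0141 in limma), and Lpin2 and Agpat1 did not (0.130 for each).

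**Figure D4:**
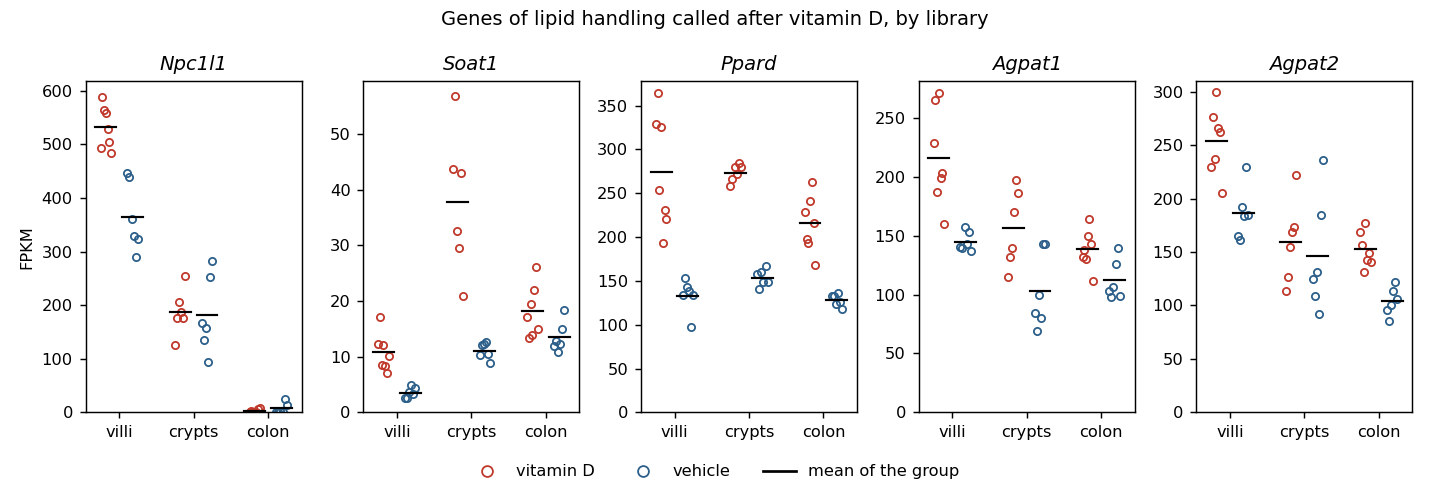
FPKM of Npc1l1, Soat1, Ppard, Agpat1 and Agpat2 in each library, vitamin D left of vehicle within villi, crypts and colon, with group means as bars. Ppard lies higher with vitamin D in all 3 tissues without overlap, Soat1 does so in villi and crypts, Npc1l1 and Agpat1 do so in villi, and Agpat2 does so in colon.

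The remaining lipid lists held no call in any tissue in limma without a block or covariate. For fatty acid and sterol uptake 5 genes were tested in villi, 5 in crypts and 6 in colon. The smallest p there was that of Scarb1, a receptor for lipoproteins, in villi (-0.66 ± 0.29, adjusted p = 0.360) and in colon (-0.25 ± 0.13, 0.718), and that of Slc27a4, a fatty acid transport protein, in crypts (-0.66 ± 0.35, 0.400). For chylomicron assembly and secretion 12 genes were tested in each tissue, with medians of 0.04 in villi, -0.13 in crypts and -0.04 in colon. The smallest p was that of Pla2g12b, needed for apolipoprotein B particles to expand, in villi (-0.34 ± 0.12, adjusted p = 0.238) and crypts (-0.64 ± 0.27, 0.290). In colon it was Sec24c, a coat protein of vesicles leaving the endoplasmic reticulum (-0.15 ± 0.08, 0.665).

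For lipid droplets and lipolysis 11 genes were tested in villi, 12 in crypts and 12 in colon, with medians of 0.01, -0.23 and 0.01. Abhd5, which activates triglyceride lipase, came nearest in villi (0.45 ± 0.12, adjusted p = 0.0698). It passed with the replicate block (0.53, adjusted p = 0.0147), with name style (0.0340), number prefix (0.0459) or sex pattern (0.0203) as a covariate, and in the authors' deposited table (0.0115). Mgll, the monoacylglycerol lipase that works against Mogat2, came nearest in colon, with 47.9 ± 17.4 FPKM with vitamin D and 24.8 ± 3.72 FPKM with vehicle (SD; 0.87 ± 0.21, adjusted p = 0.0863), and it passes in the authors' deposited table (0.00194). In crypts the smallest p was 0.0218 before and 0.235 after adjustment in limma. Adipocytes also express Mgll, and the adipocyte sums of colon given above were highest in vitamin D replicates 2 and 3; their part in Mgll was not tested.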

How the data were processed

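RNA was sequenced from villi, crypts and colon epithelium, in groups taken from the sample titles. The authors deposited, per the file headers, a table of FPKM per tissue, and, for each comparison, a table of the mean normalised level (a signal), log2 fold change, standard error and test score, and of the raw and adjusted p-value of the genes. Per the submitters' processing notes the tools included kallisto 0.45.0, DESeq 1.28.1 and DESeq2, on build mm9; the sources used here do not say which of them made a column, and no coordinate comes from these files. Tables were normalised separately, so tests were run within a tissue, except the contrasts between responses. Genes that reached 1 FPKM in 6 or more libraries of a tissue were tested on log2(FPKM + 0.5), which understates changes of low genes, with limma 3.58.1 (eBayes with trend, two-sided, no covariate) in R 4.3.3, with Benjamini-Hochberg adjustment across the tested genes and a threshold of 0.05. The fit was tested for the recovery of known changes on simulated data, with independent noise drawn from the villus means and spreads. That check holds no spread shared between genes and no sex, prefix or pairing, so it does not cover those features of the crypt and colon libraries. The members, and the lists of pathway and marker genes, were chosen with earlier results of these data known. All members are named. Of each pathway list the called genes are named or, where none passed, the gene of smallest p, with genes called by the block or with the sex pattern as a covariate. Of the marker lists a selection is printed. Alternatives changed the pseudocount, filter, scaling, libraries and block. Same-numbered vitamin D and vehicle libraries deviated together from their group means in villi (correlation 0.10 to 0.46 over 6 pairs) and crypts (0.12 to 0.55). This is taken as a pairing by the titles' numbers, though the same number was the best match in just 4 of 6 pairs in villi and 3 of 6 in crypts. The blocked value is given where it changed the call of a member or of a gene in a lipid list. In villi the block leaves out vitamin D replicate 7, which has no vehicle library of its number in the titles. By column name it shares a replicate number and a number prefix with vehicle replicate 6. The titles instead pair vehicle replicate 6, of male pattern, with vitamin D replicate 6, of female pattern and without a prefix. The villus calls that need the block carry this limit. Sex pattern was read from Xist and Ddx3y, whichever was higher.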

Additional observations from a re-analysis of the deposited data

Results flagged for a closer look

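Dixon's criterion was applied on the log2 scale used for the tests. In 4 of the 60 groups formed by a member and a set of libraries, 1 library stood far from the rest on that scale. Chance flags about 1 in 20 groups. All 4 flagged libraries were replicates 4, which have the male pattern of Xist and Ddx3y, and the lowest of their group. The other male-pattern villus libraries had 7.57 and 15.2 FPKM of Cd36 with vehicle and 12.5 and 7.51 FPKM with vitamin D. Of Fabp2 the other male-pattern vehicle villus libraries had 3015 and 2898 FPKM. In vehicle crypts there was no other male-pattern library. Cd36 was at 1.53 FPKM in vitamin D villi replicate 4, against 7.51 FPKM in the next library, and at 1.09 FPKM in vehicle villi replicate 4, against 7.57 FPKM in the next. Fabp2 was at 1124 FPKM in vehicle villi replicate 4, against 2502 FPKM in the next. Apob was at 49.4 FPKM in vehicle crypts replicate 4, against 180.3 FPKM in the next. The criterion was not tested on FPKM itself, where high libraries of vehicle colon also stood apart. Vehicle colon replicate 5 had 724 FPKM of Fabp1 and 98.7 FPKM of Mttp, against 219.7 and 27.8 FPKM in the next library. Vehicle colon replicate 6 had 119 FPKM of Apob, against 52.5 FPKM in the next. That the flagged libraries were all low therefore holds for the log2 scale alone.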

How the results depend on the processing

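The count of genes called in villi (240) became 97 in plain-named libraries alone, 113 in libraries without a number prefix, 152 without both replicates 4, 110 in female-pattern and 21 in male-pattern libraries, with 0 members called in each. In crypts the 157 calls became 444 with the replicate block by title number (1 member, Cd36), 391 with name style and 272 with sex pattern as a covariate, 84 in plain-named libraries and 794 without both replicates 4 (1 member, Apob). In colon the 95 calls became 147 with the replicate block, 146 with number prefix as a covariate, 63 in female-pattern and 0 in male-pattern libraries (limma, 3 against 3; 321 genes at p under 0.05 before adjustment). Leaving out 1 library gave 176 to 223 genes in villi, 107 to 1065 in crypts and 66 to 141 in colon, and 1, 0 to 2 and 0 members. Differences of response went to 5 (name style) and 10 (replicate block) for villi minus crypts, 131 and 154 for villi minus colon, and 24 (replicate block) for crypts minus colon. In villi Npc1l1 kept its call with the block, and no member but Cd36 in crypts changed its call with it. Colon numbers were not taken as a pairing, since 3 of 6 correlations passed 0.1 (0.06 to 0.57), against 6 of 6 in villi and in crypts. The library of the same number was the best match in 3 of 6 pairs in colon, but also in just 3 in crypts and 4 in villi. The pairing in crypts and villi is therefore uncertain, and so are calls that need the block. The block in colon also called Apoe and Sqle of the lipid lists.

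Signs turned for changes that had not passed. In villi Fabp2 was -0.0079 and Apob -0.22 in plain-named libraries, Apob -0.23 without prefixed and -0.36 in female-pattern libraries, Fabp2 -0.0020, Cd36 0.022 and Apoa4 -0.0027 in male-pattern libraries, Fabp2 -0.072 and Apoa4 -0.040 with a block by column number, and Apoa4 -0.033 without both replicates 4. In crypts Npc1l1 was -0.058 without both replicates 4. In colon Mogat2 was 0.020 at pseudocount 0.1, 0.0034 with median ratio scaling, 0.60 and 0.57 in plain-named and unprefixed libraries, 0.074 with the prefix as covariate and 0.054 with the column block. Fabp1 was 0.59, 0.81, 0.21 and 0.020 in the same last 4. Npc1l1 was 0.33 and 0.32 and Mttp 0.31 and 0.44 in plain-named and unprefixed libraries. In female-pattern libraries Fabp1 was 1.09, Npc1l1 0.34, Mogat2 0.68 and Mttp 0.45, in male-pattern ones Cd36 was -0.64, Apoa1 -0.55 and Apoa4 -0.72, and with sex pattern as covariate Fabp1 was 0.17 and Mogat2 0.077. With the title block and with name style Fabp2 was -0.029 and -0.015, Apoa1 -0.19 and -0.14, and Apoa4 -0.15 and -0.076. Leaving out 1 library, the colon changes ranged from -0.51 to 0.94 for Fabp1, -0.17 to 0.21 for Fabp2, -0.15 to 0.38 for Cd36, -0.63 to 0.26 for Npc1l1, -0.21 to 0.46 for Mogat2, -0.34 to 0.019 for Dgat1, -0.80 to 0.40 for Mttp, -0.22 to 1.25 for Apoa1 and -0.15 to 1.41 for Apoa4. In villi they ranged from -0.12 to 0.23 for Fabp2, -0.73 to 0.18 for Cd36, -0.019 to 0.095 for Dgat1, -0.059 to 0.22 for Apob and -0.13 to 0.13 for Apoa4, and in crypts from -0.053 to 0.26 for Npc1l1 and -0.28 to 0.0097 for Dgat1. The causes were not tested; settings added after seeing the data were those on number prefix, column number, sex pattern, both replicates 4, and villi and crypts alone.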

Other observations

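The genes whose log2 level was most like the mean standardised level of the 10 members were looked up as a description, over libraries that share depth and cell make-up. In crypts (12 libraries, 10723 other genes) they were Epha1 (Pearson correlation 0.995), Mpp1 (0.992), Sectm1b (0.992), Pdzk1 (0.991) and Trim30d (0.991). In villi (13 libraries, 9696 other genes) they were Fbxl5 (0.942), Btnl2 (0.938), Gm11127 (0.934), Pepd (0.927) and Pgrmc1 (0.910). Spearman correlations were 0.958 to 0.993 in crypts and 0.824 to 0.923 in villi.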
